A study of Mus musculus with 4 samples.

Results

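The 8 genes described here, Htr1b, Htr2a, Htr2b, Slc6a4, Tph1, Ddc, Maoa and Maob, encode receptors, the plasma membrane transporter, synthesis enzymes and breakdown enzymes of serotonin. They were taken by name from the 47729 genes counted in each library, and all 8 were found. Polyadenylated RNA of whole mouse lung was sequenced in 4 libraries, 2 labelled Sugen-Hypoxic and 2 labelled Normoxic. The Sugen-Hypoxic libraries each list 2 males, while Normoxic replicate 1 lists 3 females and Normoxic replicate 2 lists 1 female and 2 males, and each library is read here as RNA of those mice pooled. Every pool is of strain BL/6 and of the genotype Control (Rosa), which both groups share. The series is about mutations of KCNK3, but the mice analysed here carry none by their labels. The sources used here give no age, dose or length of exposure. Sugen, an inhibitor of VEGF receptors, was not given apart from hypoxia, so the agent and the low oxygen cannot be told apart, and both Sugen-Hypoxic pools are male.

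Serotonin is made from tryptophan, which tryptophan hydroxylase (Tph1 outside the brain) hydroxylates and aromatic amino acid decarboxylase (Ddc) then decarboxylates. Most serotonin in the circulation comes from enterochromaffin cells of the gut and is carried in platelets, and lung endothelium is known for clearing it through the transporter Slc6a4 and breaking it down with monoamine oxidases. Smooth muscle of pulmonary arteries responds to serotonin by contraction and growth, through receptors that include Htr1b, coupled to Gi, and Htr2a and Htr2b, coupled to Gq. The pathway is therefore studied in pulmonary hypertension, which Sugen with hypoxia is used to produce in rodents.

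Among the receptors 1 rose while the values of the others were lower without passing the test, and the sequences at the starts of their genes are shown for that reason. RefSeq windows on GRCm38.p6 run from 250 bases before to 50 after an annotated start, and 7 of the 8 members had one (Maob did not). The windows were searched on both strands for GCGTG, the core bound by the aryl hydrocarbon receptor (which Sugen is known to activate), and ACGTG, a core bound by hypoxia-inducible factors, whose consensus also takes GCGTG. The cores differ in their first letter and can share a base where the last G of one is the first of the other. Matches are in capitals, in the gene's own direction. The windows are chr14:74640624-74640923 on the plus strand for Htr2a, chr1:86111931-86112230 on the minus strand for Htr2b and chr9:81633783-81634082 on the minus strand for Htr1b.
Htr2a: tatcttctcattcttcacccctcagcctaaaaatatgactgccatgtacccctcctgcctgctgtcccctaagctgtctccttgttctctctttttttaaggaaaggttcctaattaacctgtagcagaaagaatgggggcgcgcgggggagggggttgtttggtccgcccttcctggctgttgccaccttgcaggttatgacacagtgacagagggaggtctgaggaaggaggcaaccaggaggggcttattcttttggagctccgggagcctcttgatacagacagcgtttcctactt
Htr2b: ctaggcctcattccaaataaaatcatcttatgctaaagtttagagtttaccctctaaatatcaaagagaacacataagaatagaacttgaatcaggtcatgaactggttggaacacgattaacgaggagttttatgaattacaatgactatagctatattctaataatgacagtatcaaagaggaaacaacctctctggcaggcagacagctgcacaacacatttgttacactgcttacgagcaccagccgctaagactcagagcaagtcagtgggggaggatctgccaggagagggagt
Htr1b: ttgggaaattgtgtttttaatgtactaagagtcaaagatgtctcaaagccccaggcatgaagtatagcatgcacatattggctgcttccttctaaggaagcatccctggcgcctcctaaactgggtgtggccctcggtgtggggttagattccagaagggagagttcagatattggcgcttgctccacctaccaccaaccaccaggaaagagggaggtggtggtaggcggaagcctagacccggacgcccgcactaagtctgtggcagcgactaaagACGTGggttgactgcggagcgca
Neither core was found in the windows of Htr2a and Htr2b, and that of Htr1b held 1 ACGTG, 27 bases past the start. Among 32851 windows of the same length, 32.4% held GCGTG, 19.6% held ACGTG and 43.8% held either. Of the 9 windows of members, 4 held a core, those of Htr1b, Slc6a4 and 1 of the 2 windows each of Tph1 and Ddc. These matches describe letters and show no binding.

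The files carried the profile of lung, though the extraction text names kidneys. The 12 lung identity genes summed to 33747 to 41744 CPM (counts scaled to 1000000 gene counts a library) in the 4 libraries, and the 12 kidney markers to 0.593 to 1.89 CPM, with 3 of them at 0 in every library. Gene counts ran from 57319562 to 67135829 per library. Low counts were mostly even numbers: of genes with 1 to 10 counts, 86.4 to 89.2% had an even count, against 49.3 to 50.1% above 50 counts, so that independent fragments may be fewer than counts and the counting error of low members larger than their counts give. In edgeR's quasi-likelihood test over 18783 genes that passed a filter on low counts, 11.5% differed at a Benjamini-Hochberg adjusted p under 0.05, 5.51% higher and 6.01% lower in Sugen-Hypoxic lungs. The number of calls rested on the Normoxic pair: without Normoxic replicate 1, 17 genes rose and 8 fell, and without Normoxic replicate 2, 55 rose and 58 fell. Without Sugen-Hypoxic replicate 1 or 2 the counts were larger, at 2663 and 2323 higher and 2438 and 2454 lower. Kcnk3 was at 49.0 ± 5.37 CPM in Sugen-Hypoxic and 66.0 ± 0.641 CPM in Normoxic lungs (SD, n = 2 each) and did not pass (log2 fold change -0.36 ± 0.09 SE, adjusted p = 0.0642).

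Of the 8 members, 1 rose (Htr2a), 1 fell (Maob), 5 were tested and did not pass (Htr1b, Htr2b, Slc6a4, Ddc and Maoa), and Tph1 was too low to be tested. Against 11.5% of all genes, 2 calls among 7 tested members is too small a count to set them apart. The median log2 fold change of the 7 was -0.33, with 6 below 0, and that of all 18783 genes was 0.00 (-0.0039). No p-value here refers to more than these 4 pools: nothing in the labels ties a pool to a separate experiment.

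**Figure D1:**
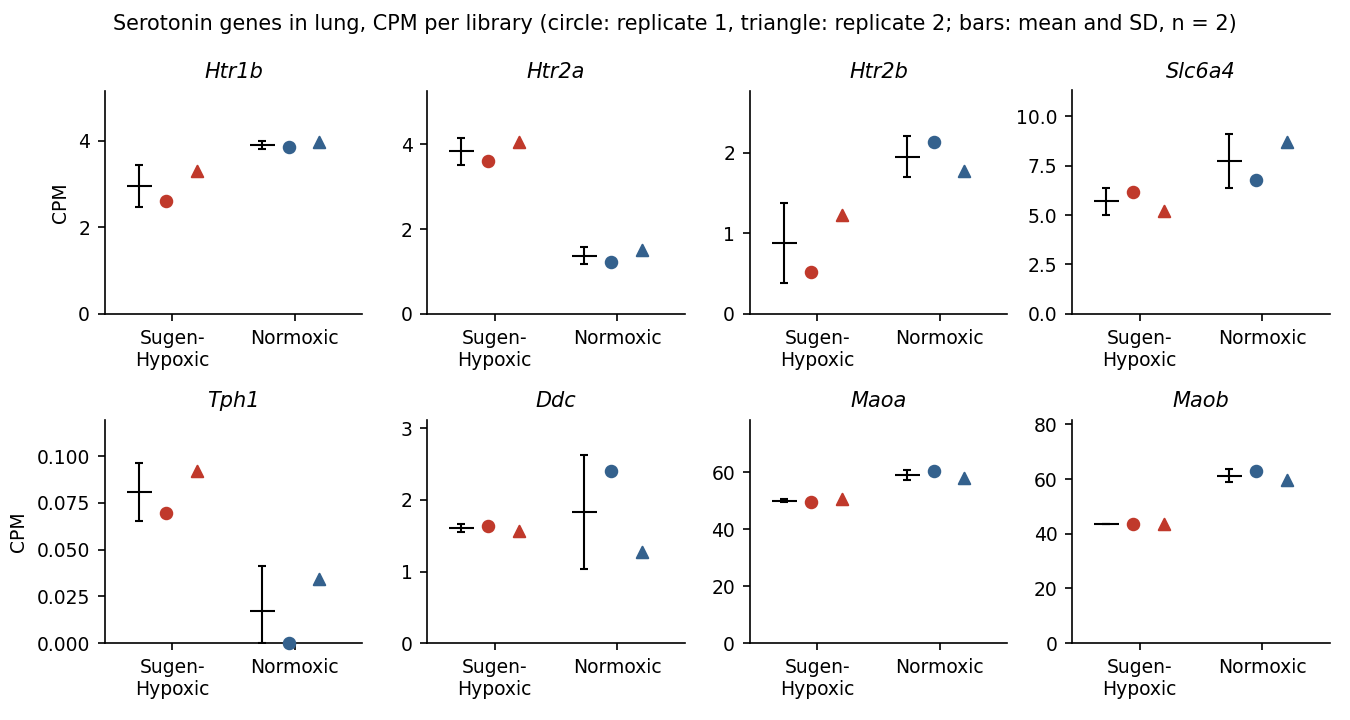
CPM of the 8 genes in each library, Sugen-Hypoxic left and Normoxic right, circles for replicate 1 and triangles for replicate 2, with mean and SD beside them (n = 2; the SD is drawn down to 0 at most). Each panel has its own axis from 0. Htr2a lies at 3.61 and 4.06 CPM in the Sugen-Hypoxic libraries and at 1.24 and 1.51 CPM in the Normoxic ones, while the Normoxic points of Ddc lie on both sides of the Sugen-Hypoxic ones.

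Htr2a, a Gq-coupled receptor of vascular smooth muscle and platelets, was the member that rose. It lies on chromosome 14 (ENSMUSG00000034997, GRCm38, 74640840 to 74709494, plus strand), and the start of the gene is the first of the sequences printed above. It had 3.61 and 4.06 CPM in Sugen-Hypoxic replicates 1 and 2, against 1.24 and 1.51 CPM in Normoxic replicates 1 and 2. Both Sugen-Hypoxic libraries lay above both Normoxic ones, by more than the distance within either pair. The fold change was 2.93 (log2 1.55 ± 0.22 SE), with adjusted p = 0.0153 in edgeR's quasi-likelihood test. These CPM rest on 207 and 265 counts in Sugen-Hypoxic and 83 and 88 counts in Normoxic libraries, and no annotated gene overlaps it. The call was lost without Normoxic replicate 1 (log2 1.42, adjusted p = 0.149), without Normoxic replicate 2 (1.69, adjusted p = 0.111) and with the share of males in a pool as a covariate (1.28, adjusted p = 0.552), a fit with 1 residual degree of freedom. The all-female Normoxic pool was the lowest of the 4 and the mixed pool the next, so pool sex ran in the same order as the level. At 83 and 88 counts the Normoxic pools are not firmly ranked, and the rest of the order is that of the groups.

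Markers of cells that surround vessels were higher in the same libraries, and so were those of other cells. Fibroblast markers summed to 4766 and 5899 CPM in Sugen-Hypoxic against 3397 and 3732 CPM in Normoxic libraries (2 of 10 rose, 0 fell). Arterial endothelial markers summed to 2053 and 1649 CPM against 1297 and 1329 CPM (2 of 10 rose, 3 fell). The counts of both lists changed in every fit with 1 library left out. Without Sugen-Hypoxic replicate 1 or 2, fibroblast markers passed in both directions. Of 10 smooth muscle markers 6 rose and 0 fell, and 1 had a log2 fold change below 0. Of all genes tested, 5.51% rose. Those of the list that rose include Tagln (1.75-fold), Myl9 (1.70-fold) and Acta2 (1.56-fold). The 10 summed to 1512 and 1624 CPM in Sugen-Hypoxic against 1141 and 1265 CPM in Normoxic libraries. Without Sugen-Hypoxic replicate 2, smooth muscle markers passed in both directions. Of 10 pericyte markers 4 rose, led by Rgs5 (5.90-fold), and the list summed to 1298 and 1171 CPM in Sugen-Hypoxic against 991 and 1036 CPM in Normoxic libraries. Without Normoxic replicate 1 or 2 the counts were 0 and 0 of 10 for smooth muscle (edgeR; 6 and 6 at an unadjusted p under 0.05) and 1 and 1 of 10 for pericytes. None of either list was at 0. Their part in the value of Htr2a was not tested, and in whole lung a change in the number of cells of a type and in RNA per cell cannot be told apart.

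Htr2b, the other Gq-coupled receptor and the one through which some appetite suppressants damage heart valves in people, had lower values that did not pass. It lies on chromosome 1 (ENSMUSG00000026228, 86099026 to 86111970, minus strand). It had 0.523 and 1.22 CPM in Sugen-Hypoxic replicates 1 and 2, against 2.13 and 1.77 CPM in Normoxic replicates 1 and 2. The groups did not overlap, but the Sugen-Hypoxic pair lay far apart, at 30 and 80 counts. The log2 fold change was -1.09 ± 0.43 (SE), adjusted p = 0.161 in edgeR's quasi-likelihood test. Without Sugen-Hypoxic replicate 2 it was -1.81 and without Sugen-Hypoxic replicate 1 it was -0.62, so the value turned on which of the 2 libraries was kept. In both fits the spread of the lone Sugen-Hypoxic library is taken from the Normoxic pair, so a call there is weak evidence.

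Htr2b lies inside the gene of a proteasome subunit, Psmd1, on the opposite strand, and counts from that strand were 6 and 32 in Sugen-Hypoxic and 6 and 14 in Normoxic libraries. The strand-matched column used here keeps the strands apart, and the unstranded column gave a log2 fold change of -0.99. Cardiac muscle genes of the pulmonary veins were ordered across libraries as Htr2b was. The 10 of them summed to 278 and 454 CPM in Sugen-Hypoxic replicates 1 and 2 and to 705 and 667 CPM in Normoxic replicates 1 and 2, with 1 of 10 lower in edgeR's test (Myl7) and 5 lower in DESeq2's. None of the 10 was at 0. In edgeR's test 0 and 0 fell without Normoxic replicate 1 or 2 (3 and 4 at an unadjusted p under 0.05), 6 without Sugen-Hypoxic replicate 1 and 9 without Sugen-Hypoxic replicate 2. Their part in the value of Htr2b was not tested.

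Htr1b, a Gi-coupled receptor that mediates contraction of pulmonary arteries in several species, had 2.62 and 3.29 CPM in Sugen-Hypoxic against 3.84 and 3.97 CPM in Normoxic libraries. It lies on chromosome 9 (ENSMUSG00000049511, 81628291 to 81633828, minus strand). The Sugen-Hypoxic values were lower and did not overlap the Normoxic ones, but the log2 fold change of -0.33 ± 0.20 (SE) did not pass (adjusted p = 0.309). A gene on the opposite strand, D430036J16Rik, overlaps it.

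Per length of exon, the 3 receptors changed places. Levels per kb were computed over all annotated exons of a gene, so they depend on which isoforms are listed. In Normoxic lungs Htr2b and Htr1b stood at 0.915 and 0.827 CPM per kb, with overlapping libraries, and Htr2a at 0.245, below both in each library. In Sugen-Hypoxic lungs Htr2a averaged 0.684, Htr1b 0.625 and Htr2b 0.410 CPM per kb, and each neighbouring pair overlapped between libraries. Htr2a made up 44.6 and 36.3% of the summed level per kb of the 3 in Sugen-Hypoxic libraries, against 10.8 and 13.9% in Normoxic ones. The summed level itself was 1.44 and 1.99 CPM per kb in Sugen-Hypoxic and 2.03 and 1.94 CPM per kb in Normoxic libraries, so it overlapped between groups.

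The ratio of Htr2a to Htr2b does not depend on library scaling. On the scale per kb it was 2.62 and 1.26 in Sugen-Hypoxic and 0.221 and 0.325 in Normoxic libraries. The groups were wide apart, but an exact two-sided permutation test of 2 against 2 cannot go below p = 0.333, the value found here.

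**Figure D2:**
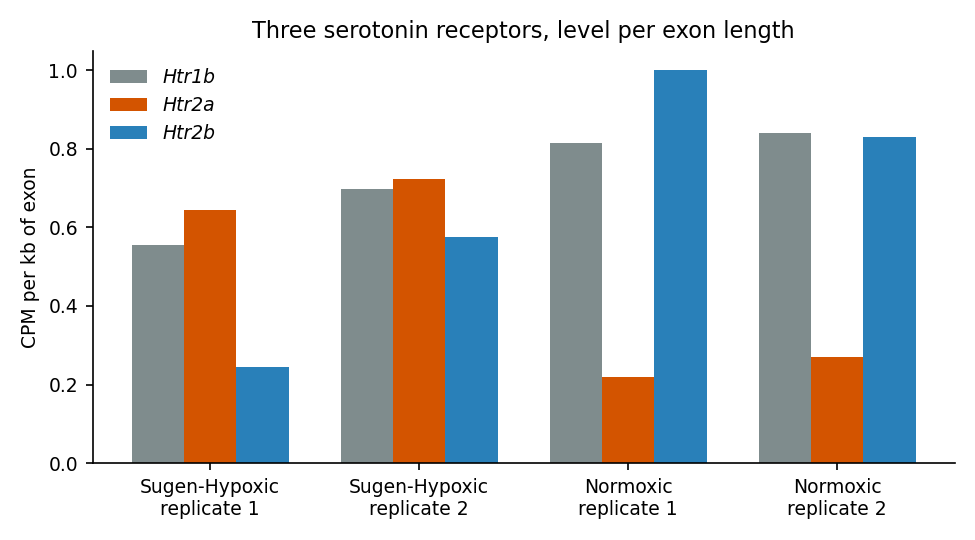
Level of Htr1b, Htr2a and Htr2b in each library, in CPM per kb of exon, as 1 bar per gene (no error bar, since each bar is a single library). Htr2a is the lowest bar in both Normoxic libraries, at 0.221 and 0.270, and the highest in both Sugen-Hypoxic libraries, at 0.644 and 0.723.

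The other serotonin receptors were mostly not measurable in lung. Of 11 listed, 5 had 0 counts in every library and 10 stayed under 1 CPM in all. The exception was the X-linked Htr2c, best known from brain, at 1.85 and 1.64 CPM in Sugen-Hypoxic against 2.26 and 2.23 CPM in Normoxic libraries. Of the 3 receptors tested, 0 passed (edgeR; 0 at an unadjusted p under 0.05 and 0 with DESeq2). Htr7, a Gs-coupled receptor, was at 0.395 ± 0.0903 CPM in Sugen-Hypoxic and 0.747 ± 0.207 CPM in Normoxic lungs (SD, n = 2 each), with adjusted p = 0.229.

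Slc6a4, the serotonin transporter, takes serotonin into endothelium and platelets. It lies on chromosome 11 (ENSMUSG00000020838, 76998603 to 77032340, plus strand). It had 6.18 and 5.20 CPM in Sugen-Hypoxic replicates 1 and 2, against 6.76 and 8.69 CPM in Normoxic replicates 1 and 2. The Sugen-Hypoxic values were lower without overlap, but the highest of them lay close to Normoxic replicate 1. The log2 fold change of -0.37 ± 0.18 (SE) did not pass (adjusted p = 0.236 in edgeR's quasi-likelihood test) and ran from -0.19 without Normoxic replicate 2 to -0.71 with the male fraction as a covariate (adjusted p = 0.737 and 0.590).

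Endothelial markers moved in both directions. Of 10 capillary endothelial markers 2 rose and 5 fell, with sums of 3251 and 2867 CPM in Sugen-Hypoxic and 3295 and 3261 CPM in Normoxic libraries, and of 10 pan-endothelial markers 3 rose and 1 fell. None was at 0. Without Normoxic replicate 1 or 2, 1 and 2 of the capillary markers fell and 0 and 0 rose (edgeR; 7 and 7 at an unadjusted p under 0.05), and 0 and 0 of the pan-endothelial ones passed (4 and 5 unadjusted). Of the pan-endothelial markers, 5 and 8 rose and 2 and 2 fell without Sugen-Hypoxic replicate 1 or 2.

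Platelet genes were not level between the Normoxic pools. The 10 platelet and megakaryocyte markers summed to 40.1 and 50.3 CPM in Sugen-Hypoxic replicates 1 and 2, and to 37.6 and 81.5 CPM in Normoxic replicates 1 and 2. Normoxic replicate 2, the highest for these markers, was also the highest for Slc6a4, but the other libraries were ordered otherwise. Normoxic replicate 1 was the lowest for the markers and the next highest for Slc6a4. Sugen-Hypoxic replicate 2 was the next highest for the markers and the lowest for Slc6a4. None of the 10 was at 0 and 0 passed (edgeR; 3 at an unadjusted p under 0.05, 0 with DESeq2). Leaving out Sugen-Hypoxic replicate 1 gave 1 higher and 1 lower, and leaving out replicate 2 gave 0 higher and 2 lower. The part of either cell type in the value of Slc6a4 was not tested.

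Among genes that store or carry monoamines otherwise, 1 of 8 fell, 0 rose, 6 did not pass and 1 was too low to be tested. The 1 that fell was Slc6a2, the noradrenaline transporter, on chromosome 8, at 91.2 and 76.6 CPM in Sugen-Hypoxic against 121 and 154 CPM in Normoxic libraries. Its log2 fold change was -0.65 ± 0.14 (SE), adjusted p = 0.0420, and it lost the call without either Normoxic replicate. In the list as a whole, 2 and 1 fell without Sugen-Hypoxic replicate 1 or 2. Per kb of exon it stood above Slc6a4 in every library. Slc18a2 and Slc18a1, the vesicular monoamine transporters, were at 0.519 and 2.42 CPM in Sugen-Hypoxic and 1.08 and 1.83 CPM in Normoxic lungs (means), and Slc22a3, a low-affinity cation transporter, at 7.22 and 9.39 CPM. None of these 3 passed.

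**Figure D3:**
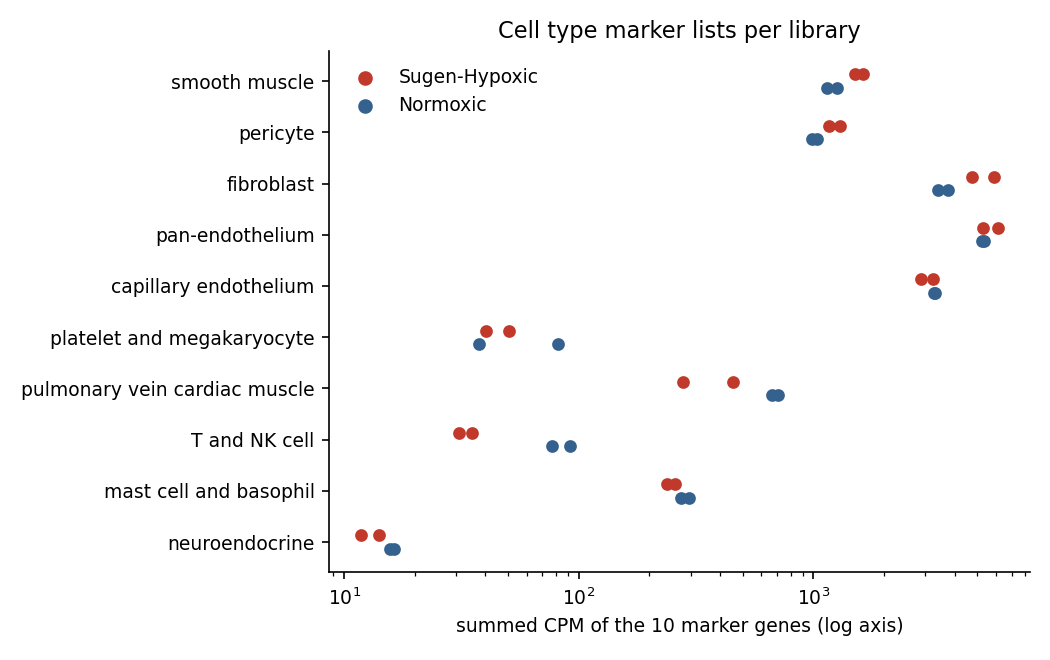
Summed CPM of 10 markers for each of 10 cell types, 1 point per library, on a log axis, with Sugen-Hypoxic points above Normoxic ones. Smooth muscle, pericyte and fibroblast sums are higher in both Sugen-Hypoxic libraries, and pulmonary vein cardiac muscle and T and NK cell sums are lower. The platelet sums of the Normoxic pools lie apart at 37.6 and 81.5 CPM.

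Tph1, the rate-limiting enzyme of serotonin synthesis outside the brain, was at the limit of detection. It lies on chromosome 7 (ENSMUSG00000040046, 46644641 to 46672537, minus strand). It had 4 and 6 counts in Sugen-Hypoxic and 0 and 2 counts in Normoxic libraries, or 0.0698 and 0.0918 CPM against 0 and 0.0344 CPM. A count of 0 in Normoxic replicate 1 allows up to 0.0447 CPM (3 counts). It failed the filter on low counts and no fold change is given. All 4 counts were even, so they may stand for fewer fragments. Tph2, the enzyme of brain neurons, was as low, at 0.0787 and 0.0172 CPM in Sugen-Hypoxic and Normoxic lungs.

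Ddc, which also serves dopamine synthesis, had 1.64 and 1.56 CPM in Sugen-Hypoxic against 2.40 and 1.27 CPM in Normoxic libraries. It lies on chromosome 11 (ENSMUSG00000020182, 11814101 to 11898144, minus strand). The groups overlapped, and the difference within the Normoxic pair was larger than that between group means. The log2 fold change of -0.13 ± 0.36 (SE) did not pass (adjusted p = 0.839) and turned to 0.42 without Normoxic replicate 1 and to 0.87 with the male fraction as a covariate. The all-female pool held the highest level of the 4.

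Cells known to make serotonin left few counts. Of 10 neuroendocrine markers 7 stayed under 1 CPM in all libraries and none was at 0 in all 4. The list summed to 14.1 and 11.8 CPM in Sugen-Hypoxic and 16.3 and 15.7 CPM in Normoxic libraries, mostly from the synaptic vesicle gene Syp, and 1 of 7 tested members passed, the peptide gene Grp, as lower. Mast cell and basophil markers summed to 237 and 257 CPM in Sugen-Hypoxic and 295 and 272 CPM in Normoxic libraries, mostly from Gata2 and Hdc, which other lung cells also express, and 2 of 9 tested fell, Mcpt8 and Fcer1a. In edgeR's test 0 genes of either list passed without Normoxic replicate 1 or 2, or with the male fraction as a covariate (at an unadjusted p under 0.05, 1, 1 and 0 of the neuroendocrine and 3, 3 and 1 of the mast cell and basophil markers). The counts of lower neuroendocrine markers were 1 and 2, and of lower mast cell and basophil markers 4 and 3, without Sugen-Hypoxic replicate 1 or 2. Their part in the values of Tph1 and Ddc was not tested.

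The cofactor of tryptophan hydroxylase, tetrahydrobiopterin, is made from GTP by Gch1, Pts and Spr. Of the 8 genes listed for synthesis and this cofactor 1 rose, 0 fell, 6 did not pass and 1 was too low to be tested. Gch1, the first and rate-limiting enzyme, had 20.8 and 23.0 CPM in Sugen-Hypoxic against 15.8 and 15.1 CPM in Normoxic libraries, 1.49-fold higher (log2 0.57 ± 0.09 SE, adjusted p = 0.0178). It lost the call without either Normoxic replicate. The same cofactor serves nitric oxide synthases. Qdpr, which recycles it and had the highest CPM of the list, was at 44.1 ± 2.23 CPM in Sugen-Hypoxic and 43.1 ± 3.41 CPM in Normoxic lungs (SD, n = 2 each) and did not pass.

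Maob, the oxidase of the outer mitochondrial membrane that prefers phenylethylamine, was the member that fell. It lies on the X chromosome (ENSMUSG00000040147, 16709282 to 16817366, minus strand), next to Maoa. It had 43.6 and 43.4 CPM in Sugen-Hypoxic replicates 1 and 2, against 62.9 and 59.5 CPM in Normoxic replicates 1 and 2. The Sugen-Hypoxic pair was nearly equal and lay well below both Normoxic libraries. It was 1.34-fold lower (log2 -0.42 ± 0.06 SE), with adjusted p = 0.0172 in edgeR's quasi-likelihood test. It rests on 2498 to 4220 counts a library.

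Maob stayed lower without either Normoxic pool but lost its call, as most called genes did in those fits. Its level also stood beside pool sex. Without Normoxic replicate 1 or 2 the log2 fold change was -0.37 (adjusted p = 0.182) and -0.47 (adjusted p = 0.120), and with the male fraction as a covariate it was -0.33 (adjusted p = 0.569). The gene is X-linked and its level followed the order of the female share. It was highest in the all-female pool, next in the mixed pool and lowest in the all-male ones. The all-male pools are the Sugen-Hypoxic ones, so apart from the Normoxic pair this order is that of the groups. Maoa, also X-linked, had the same order. Among 596 X-linked genes tested, 8.05% were called, 2.35% higher and 5.7% lower, and the median log2 fold change was -0.04. The part of pool sex in the value of Maob was not tested beyond the fit with the male fraction.

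Maoa, which prefers serotonin and noradrenaline, had 49.5 and 50.5 CPM in Sugen-Hypoxic against 60.3 and 57.8 CPM in Normoxic libraries. It lies on the X chromosome (ENSMUSG00000025037, 16619698 to 16687818, plus strand). The groups did not overlap, but the log2 fold change of -0.17 ± 0.06 (SE) did not pass (adjusted p = 0.122 in edgeR's quasi-likelihood test). The 2 oxidases summed to 93.1 and 93.9 CPM in Sugen-Hypoxic and 123 and 117 CPM in Normoxic libraries.

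The balance of the oxidases differed between groups whatever the scaling. Maoa held 1.14 and 1.16 counts for each count of Maob in Sugen-Hypoxic libraries, against 0.959 and 0.971 in Normoxic ones. The distance between groups was larger than the SD within a group (0.0178 in Sugen-Hypoxic and 0.00892 in Normoxic, n = 2 each). Counting error of each ratio is larger than these SDs, so the closeness within a group is not a measured property of the genes. The exact two-sided permutation p is 0.333, the smallest that 2 against 2 allows. Both genes are X-linked and both Sugen-Hypoxic pools are male, and the part of pool sex in the ratio was not tested. Per kb of exon the oxidases stood far above the other members. Maob averaged 15.6 CPM per kb in Sugen-Hypoxic and 21.9 in Normoxic lungs, and Maoa had 11.9 and 12.1 CPM per kb in Sugen-Hypoxic against 14.5 and 13.9 in Normoxic libraries. Slc6a4, the next in order, averaged 1.26 and 1.71 CPM per kb in Sugen-Hypoxic and Normoxic lungs.

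Below Slc6a4 the order per kb differed with the group. In Sugen-Hypoxic lungs it ran Htr2a, Htr1b, Htr2b, Ddc (0.359 CPM per kb) and Tph1 (0.0131), and neighbours from Htr2a to Ddc overlapped between libraries. In Normoxic lungs it ran Htr2b, Htr1b, Ddc (0.411), Htr2a and Tph1 (0.00278), where only the first pair overlapped.

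Of the genes listed for steps after the oxidases and for other changes to the amine, 8 were tested and did not pass and 2 were too low to be tested. Aldh2 and Aldh1a1, aldehyde dehydrogenases able to oxidise the product of the oxidases, were at 637 and 769 CPM in Sugen-Hypoxic and 882 and 891 CPM in Normoxic lungs (means), and neither passed (adjusted p = 0.0827 and 0.495). Without Sugen-Hypoxic replicate 1 the log2 fold change of Aldh1a1 was -0.32, and without Sugen-Hypoxic replicate 2 it was 0.020. In both of these fits genes of the list passed in both directions. Tgm2, a transglutaminase that can couple serotonin to proteins, was at 758 and 649 CPM in Sugen-Hypoxic and Normoxic lungs with adjusted p = 0.0576.

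Tryptophan that does not become serotonin goes mostly to the kynurenine pathway, and there 4 of 13 listed genes fell and 0 rose. Of all genes tested, 6.01% fell and 5.51% rose. The 4 listed genes that fell act after kynurenine is formed, as do Kynu and Kyat3, which did not pass. Kynu had 4.95 and 9.93 CPM in Sugen-Hypoxic against 5.05 and 5.12 CPM in Normoxic libraries (log2 fold change 0.62). The log2 fold change of Kyat3 was -0.55. Kmo, kynurenine hydroxylase, had 4.99 and 5.59 CPM in Sugen-Hypoxic against 8.98 and 8.83 CPM in Normoxic libraries, and Haao, which acts 2 steps later, had 2.18 and 2.51 against 5.15 and 5.62 CPM. Haao was 2.19-fold lower (log2 -1.13 ± 0.18 SE, adjusted p = 0.0196) and Kmo 1.61-fold lower (adjusted p = 0.0295). Qprt, the enzyme that leads on to NAD, was at 0.192 and 0.122 CPM in Sugen-Hypoxic against 0.730 and 0.756 CPM in Normoxic libraries, 4.49-fold lower from few counts (adjusted p = 0.0358).

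Kyat1, a kynurenine aminotransferase, was 1.41-fold lower (adjusted p = 0.0399). The median log2 fold change of the 12 tested was -0.41. The enzymes that open the pathway did not pass: Ido1 was at 1.11 and 1.502 CPM, Ido2 at 0.752 and 0.462 CPM and Tdo2 at 1.69 and 0.993 CPM in Sugen-Hypoxic and Normoxic lungs (means). Wars, the tryptophanyl-tRNA synthetase and the highest of the list, was at 169 and 172 CPM. Lymphocyte markers were lower in the same libraries. Of 10 T and NK cell markers 9 fell, and the sum was 30.9 and 34.9 CPM in Sugen-Hypoxic against 91.6 and 77.2 CPM in Normoxic libraries, with none at 0. Of 10 markers of monocytes and interstitial macrophages 2 rose and 2 fell, with sums of 512 and 759 CPM against 571 and 526 CPM. Of 10 alveolar macrophage markers 1 rose and 1 fell, with sums of 1894 and 4831 CPM against 1120 and 1014 CPM. Their part in the kynurenine genes was not tested. Without Normoxic replicate 1 or 2, 0 and 0 of the 12 passed (edgeR; 4 and 5 at an unadjusted p under 0.05), and 0 and 1 of the 10 T and NK markers (9 and 10 unadjusted). Without Sugen-Hypoxic replicate 1, 3 of the 12 rose and 5 fell, and without Sugen-Hypoxic replicate 2, 0 rose and 5 fell. The monocyte and interstitial macrophage counts were then 5 higher and 3 lower, and 4 higher and 5 lower.

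Of 20 genes that carry the receptors' signals, 3 rose and 1 fell, against 5.51% and 6.01% of all genes tested. These counts are too small to set the list apart. Arrb1, a beta-arrestin that uncouples activated receptors, had 737 and 664 CPM in Sugen-Hypoxic against 489 and 476 CPM in Normoxic libraries (log2 0.61 ± 0.09 SE, adjusted p = 0.0156). Gnai1, an inhibitory G protein subunit, and Rock2, a kinase that sustains smooth muscle contraction, rose 1.27-fold and 1.26-fold (adjusted p = 0.0421 and 0.0313). Itpr3, a calcium release channel, fell 1.42-fold (adjusted p = 0.00875). Gnaq and Gna11, the subunits that couple Htr2a and Htr2b, were at 204 and 153 CPM in Sugen-Hypoxic and 188 and 133 CPM in Normoxic lungs and did not pass (adjusted p = 0.113 and 0.0736). Gnai2, the highest of the list, was at 704 and 653 CPM in Sugen-Hypoxic and Normoxic lungs and did not pass (adjusted p = 0.182). Gnai1 lost its call with upper-quartile factors or library size alone, and all 4 lost theirs without either Normoxic replicate. Without Sugen-Hypoxic replicate 1, 5 of the 20 rose and 3 fell, and without Sugen-Hypoxic replicate 2, 9 rose and 3 fell.

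Over the 71 other genes of the pathway, 58 were tested, 5 rose, 6 fell and 47 did not pass. The 11 calls among 58 stand against 11.5% of all genes, and their median log2 fold change was 0.02. Without Normoxic replicate 1 or 2 none of the 11 calls was kept (edgeR; 12 and 14 of 58 at an unadjusted p under 0.05). Without Sugen-Hypoxic replicate 1, 12 rose and 13 fell, and without Sugen-Hypoxic replicate 2, 13 rose and 11 fell.

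**Figure D4:**
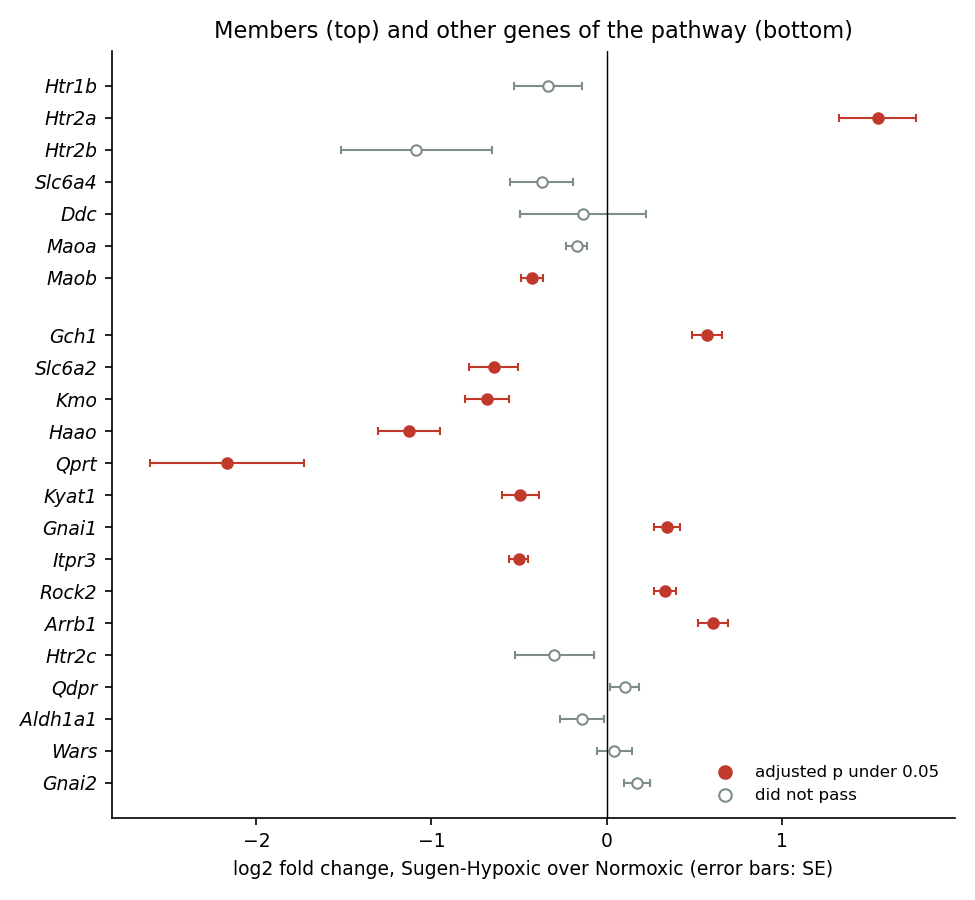
Log2 fold change (Sugen-Hypoxic over Normoxic) with SE for the 7 tested members, above, and for 15 other genes of the pathway, below: 10 past the threshold and the most abundant of each list. Filled red points passed adjusted p under 0.05. Htr2a lies farthest to the right at 1.55 and Qprt farthest to the left at -2.17.

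The genes whose 4 values were most like those of Htr2a, by the root mean square difference of log2 CPM centred on each gene's mean, were Brinp1 (0.05), Egln3 (0.09) and Pgr (0.09), out of 14861 genes of at least 1 CPM. Brinp1, a gene named from neural cells, had 9.89 and 11.97 CPM in Sugen-Hypoxic against 3.43 and 4.45 CPM in Normoxic libraries. Egln3, an oxygen sensor induced by hypoxia-inducible factors, had 5.98 and 7.90 against 2.35 and 2.89 CPM. Pgr, the progesterone receptor, had 20.3 and 19.8 against 6.02 and 8.16 CPM. For Maob they were Fmnl2 (0.003), Dzip1 (0.01) and Fam227a (0.01), at log2 fold changes of -0.43, -0.42 and -0.42, of which Fam227a did not pass (adjusted p = 0.136). Dzip1, known from cilia, fell beside all 10 of 10 ciliated cell markers, which summed to 226 and 279 CPM in Sugen-Hypoxic against 454 and 427 CPM in Normoxic libraries, with none at 0. Without Normoxic replicate 1 or 2 the count was 0 and 0 (edgeR; 10 and 10 at an unadjusted p under 0.05). Their part in the value of Maob was not tested. Likeness over 4 libraries in 2 groups is a weak measure.

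**Figure D5:**
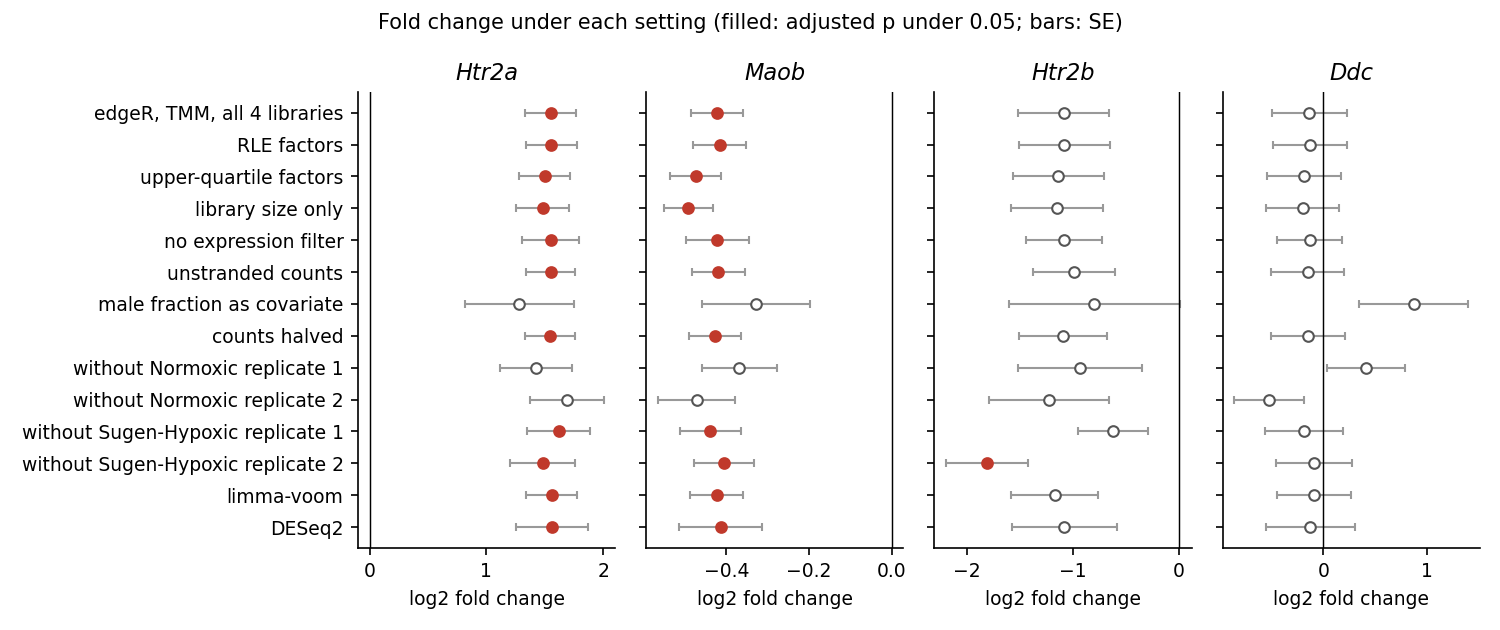
Log2 fold change with SE of Htr2a, Maob, Htr2b and Ddc under each way of processing, filled red where adjusted p was under 0.05. Htr2a and Maob lose the call in the fits without a Normoxic library and with the male fraction as a covariate, and Ddc changes sign. Htr2b is filled only without Sugen-Hypoxic replicate 2, where the spread of the lone Sugen-Hypoxic library is taken from the Normoxic pair.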

How the data were processed

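Each library has 1 deposited file of raw counts per gene, with an unstranded column and 1 for each strand. STAR 2.5.1b and HTSeq with GRCm38.p4 are named in the submitters' processing notes. The annotation and whether the kit keeps strand are not given in these sources. The column of reads antisense to read 1 held 20.9 to 24.9 times the counts of the sense column and was used. Rows for unmapped, multimapping, featureless and ambiguous reads (6.45 to 7.55%, 4.5 to 4.54%, 7.73 to 9.98% and 1.1 to 1.13% of reads) stayed out of library sizes. GENCODE M21 (GRCm38) gave names, coordinates and exon lengths to 47224 of 47729 genes. Of the symbols listed, all 243 were found, and the identifier with the highest total stood for a symbol that had several.

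Filtering with filterByExpr left 18783 genes, and edgeR 4.0.16 (R 4.3.3) with TMM factors (0.967 to 1.03) tested group as the only term, two-sided, with Benjamini-Hochberg adjustment at 0.05 over all genes. Standard errors derive from the F statistic. CPM are counts scaled to 1000000 gene counts, without TMM factors. Only the log2 CPM used to find genes nearest in pattern carry TMM factors, with a prior count of 2. Libraries of a group differed by more than counting noise (chi-square per degree of freedom 59.8 for Sugen-Hypoxic and 12.9 for Normoxic). On simulated counts of this design the share of false calls was above the adjusted threshold and small changes were often missed, so an adjusted p near the threshold is weaker evidence than it states.

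Members and lists were chosen with earlier results of these data known. Named beside the members are Kcnk3, the pathway genes past the threshold (1 of them is not reported here), the most abundant of each list, and the 3 genes nearest in pattern to each called member. Other genes in the text were chosen after their values were seen. Alternatives were other scalings, no filter, DESeq2 1.42.0, limma-voom (limma 3.58.1), unstranded counts, the male fraction and each library left out. Halved counts were added after the data were seen.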

Additional observations from a re-analysis of the deposited data

How the results depend on the processing

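Htr2a kept its direction under all 13 alternatives (log2 1.28 to 1.69), and so did Maob (-0.49 to -0.33). Both kept the call except with the male fraction as a covariate and without either Normoxic replicate. With the male fraction, 0 members rose and 0 fell (edgeR; 1 at an unadjusted p under 0.05), 0 and 0 pathway genes did (8 unadjusted), and 4 and 7 of all genes did. With 1 library left out, 0 to 1 members rose and 0 to 2 fell, 0 to 13 pathway genes rose and 0 to 13 fell, and 17 to 2663 of all genes rose and 8 to 2454 fell. The low ends belong to the fits without a Normoxic library, where the spread of the lone Normoxic sample is taken from the Sugen-Hypoxic pair. The high ends belong to the fits without a Sugen-Hypoxic library, where the spread is taken from the closer Normoxic pair. Without a filter 1775 and 1882 genes rose and fell, against 1035 and 1128, and 10 pathway genes fell against 6. DESeq2 called 8 pathway genes higher and 10 lower, against 5 and 6. Calls that were higher made up 47.9% of all calls, against 35.9% under upper-quartile scaling and 32.6% for library size alone. Values that changed sign, none of which passed in the fit that turned it, were those of Ddc (0.87 with the male fraction, and -0.52 to 0.42 with 1 library left out, the highest without Normoxic replicate 1), Qdpr (-0.041 with the male fraction), Aldh1a1 (-0.32 to 0.020 with 1 library left out, the highest without Sugen-Hypoxic replicate 2) and Wars (-0.0065 with upper-quartile factors, -0.023 for library size alone, and -0.084 to 0.16 with 1 library left out). The cause was not tested. Halving the counts changed no call of a member. No paired analysis was possible because the labels give no replicate numbers and those used here only name libraries. Depth limits Tph1 and, at 30 to 265 counts a library, the receptors too.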

Other observations

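The ratio of the noradrenaline to the serotonin transporter was nearly equal in the libraries of each group. Slc6a4 had only 340 to 506 counts a library, so counting error of the ratio is larger than those differences. The closeness is therefore not a measured property of the genes. Slc6a2 stood at 10.6 and 10.6 times the level per kb of Slc6a4 in Sugen-Hypoxic replicates 1 and 2, and at 12.9 and 12.8 times in Normoxic replicates 1 and 2, although the Normoxic pools differed in both genes. The exact two-sided permutation p of the difference between groups is 0.333, the smallest that 2 against 2 allows, and the pair was chosen after the values were seen.

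Counts from the strand opposite to Htr1b made up 21.1 and 15.0% of both strands in Sugen-Hypoxic and 14.9 and 16.6% in Normoxic libraries, where D430036J16Rik overlaps it. For Htr2b, inside Psmd1, the shares were 16.7 and 28.6% in Sugen-Hypoxic and 4.03 and 11.97% in Normoxic libraries. For the other members the share was at most 4.6%.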
